A study of Mus musculus with 4 samples.

Results

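The epithelial to mesenchymal transition (EMT) genes described here are *Vim*, *Fn1*, *Cdh2*, *Zeb1*, *Zeb2*, *Snai1*, *Snai2*, *Twist1*, *Twist2* and *Cdh1*. They were chosen by name, with earlier results of these data known, as 10 of the 21938 protein-coding genes of GENCODE M21. Every peak in the gene body with 50 kb on each side was assigned to its gene. The peaks come from ATAC-seq, in which a transposase inserts into open chromatin, of 2 SMC and 2 non-SMC lines with 1 library per line and no treatment. All 4 lines derive from lung tumors of *RP* mice (Rb1L/L, Trp53L/L), a model of small-cell lung cancer, with C57Bl/6, Balb-c and S129 mixed in the background, so the deletion of *Rb1* and *Trp53* is shared by both types. SMC (SCLC metastasizing cells) were sorted as NCAM-high, CD44-low or negative cells, and non-SMC as NCAM-low, CD44-high cells. According to the study, SMC grew in suspension and non-SMC adherent, so the cell type and the form of growth cannot be told apart here. Tumors were induced in all mice, some weeks after birth, by adenoviral Cre under the CMV promoter given through the trachea, and the age at which the cells were sorted is not given in the sources used here for these lines. The lines are named SMC#1, SMC#2, non-SMC#1 and non-SMC#2, and those that share a number form a line pair.

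In EMT, epithelial cells lose cell-cell adhesion and gain the shape, matrix and motility of mesenchymal cells. The ZEB, SNAI and TWIST transcription factors drive it, and ZEB and SNAI proteins bind E-box sequences in the promoter of *Cdh1* (E-cadherin) and repress it. Vimentin, fibronectin and N-cadherin are its usual mesenchymal products. Small-cell lung cancer is a neuroendocrine tumor that also holds cells with mesenchymal features.

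On chromosomes 1 to 19, X and Y the lists held from 91057 peaks (SMC#1) to 153954 peaks (SMC#2). Those with a -log10 q of at least 5, called strong peaks below, numbered 13062 in SMC#1, 26312 in SMC#2, 43984 in non-SMC#1 and 25103 in non-SMC#2. The lists are of different length and depth, so peaks were counted per 100000 peaks of the same list, and fold enrichment over the local background was ranked only as a percentile of the line's own list. The promoter of *Cd44*, the surface marker used for sorting, had a strong peak in both non-SMC lines but no SMC line. Of 6 neuroendocrine markers, the promoter had a strong peak at 2 in SMC#1, 5 in SMC#2 and 1 in each non-SMC line. Of 3 epithelial markers the counts were 1, 2, 1 and 1 for SMC#1, SMC#2, non-SMC#1 and non-SMC#2. No promoter of 4 leukocyte markers or of 3 alveolar and club cell markers had a strong peak in any line. Of 3 endothelial markers, 1 had one in SMC#2 and 1 in non-SMC#1. Of 3 fibroblast markers, *Col1a1* had a strong promoter peak in both non-SMC lines and *Pdgfra* and *Dcn* had none. In the gene bodies with 50 kb on each side, strong peaks numbered 3, 3, 15 and 8 at the fibroblast markers for SMC#1, SMC#2, non-SMC#1 and non-SMC#2. They numbered 3, 3, 27 and 14 at the alveolar and club cell markers, 3, 6, 11 and 5 at the leukocyte markers and 3, 7, 12 and 7 at the endothelial markers. At the neuroendocrine markers there were 12, 18, 24 and 9. These numbers are unscaled. At the fibroblast markers and at the alveolar and club cell markers, both non-SMC lines held more strong peaks than both SMC lines. At the leukocyte, endothelial and neuroendocrine markers, non-SMC#1 held more strong peaks than any other line. At the epithelial markers they numbered 7, 19, 18 and 13 in the same order of lines, so SMC#2 held the most. At *Cd44* they numbered 0, 1, 11 and 11. The part of these windows in the values below was not tested. With 2 libraries of each type the smallest two-sided exact permutation p is 0.333, so no test was run. Where the means of the 2 types are given for a gene, each stands beside the SD of its 2 lines.

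At 6 of the 10 EMT genes (*Vim*, *Fn1*, *Cdh2*, *Zeb2*, *Twist1* and *Twist2*) both non-SMC lines had more peaks per 100000 listed than both SMC lines, and at none did both SMC lines have more. Among all protein-coding genes the first pattern was found at 19% and the second at 19.9%. The median gene of the 10 had 8.24 peaks per 100000 in SMC#1, 7.47 in SMC#2, 15.11 in non-SMC#1 and 13.21 in non-SMC#2. The median difference, non-SMC minus SMC, was 4.49 peaks per 100000 at the 10 genes and -0.01 over all protein-coding genes. The windows held 90, 114, 165 and 142 peaks in SMC#1, SMC#2, non-SMC#1 and non-SMC#2. Among strong peaks alone, scaled to the strong peaks of each list, *Vim*, *Zeb1*, *Zeb2* and *Snai1* were higher in both non-SMC lines (4 of 10, against 25.5% of all genes) and no EMT gene was higher in both SMC lines (15.8% of all genes). Only *Vim* and *Zeb2* were on both lists of genes, so the count of 6 does not rest on the same genes as the count of 4.

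**Figure D1:**
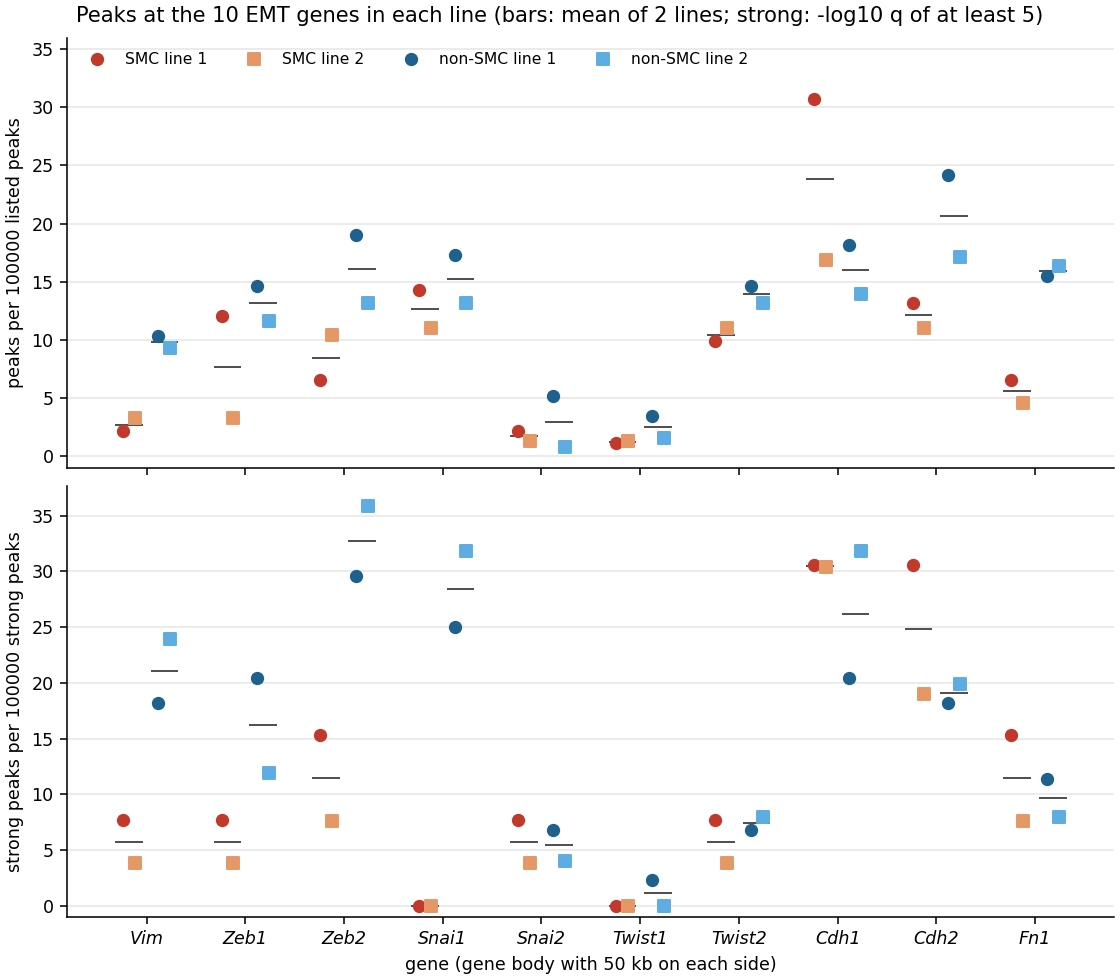
Peaks in the gene body with 50 kb on each side, for each EMT gene (x axis) and line (points), per 100000 listed peaks (top) and, for strong peaks, per 100000 strong peaks (bottom), with a bar at the mean of the 2 lines of a type. The points of non-SMC lie above those of SMC at *Vim* and *Zeb2* in both panels, whereas *Cdh2* and *Fn1* do so only in the top panel.

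The 4 lists merged into 339 regions at these genes, of 357570 in the genome. A peak shared by the non-SMC lines and absent from both SMC lists (non-SMC-only) was found at 53 of them (15.6%), against 7.33% of all regions. The opposite class (SMC-only) held 9 (2.65%), against 4.37% of all regions. A further 20 (5.90%, against 3.81%) had a peak in all 4 lines, and 230 (67.8%, against 76.9%) had one in a single line. Of the 9 SMC-only regions, 5 were at *Cdh1*, 2 at *Zeb2*, 1 at *Twist2* and 1 at *Cdh2*. The non-SMC-only regions numbered 10 at *Zeb2*, 8 each at *Zeb1* and *Cdh2*, 6 each at *Vim*, *Snai1* and *Fn1*, 5 at *Cdh1*, 3 at *Twist2*, 1 at *Twist1* and 0 at *Snai2*.

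**Figure D2:**
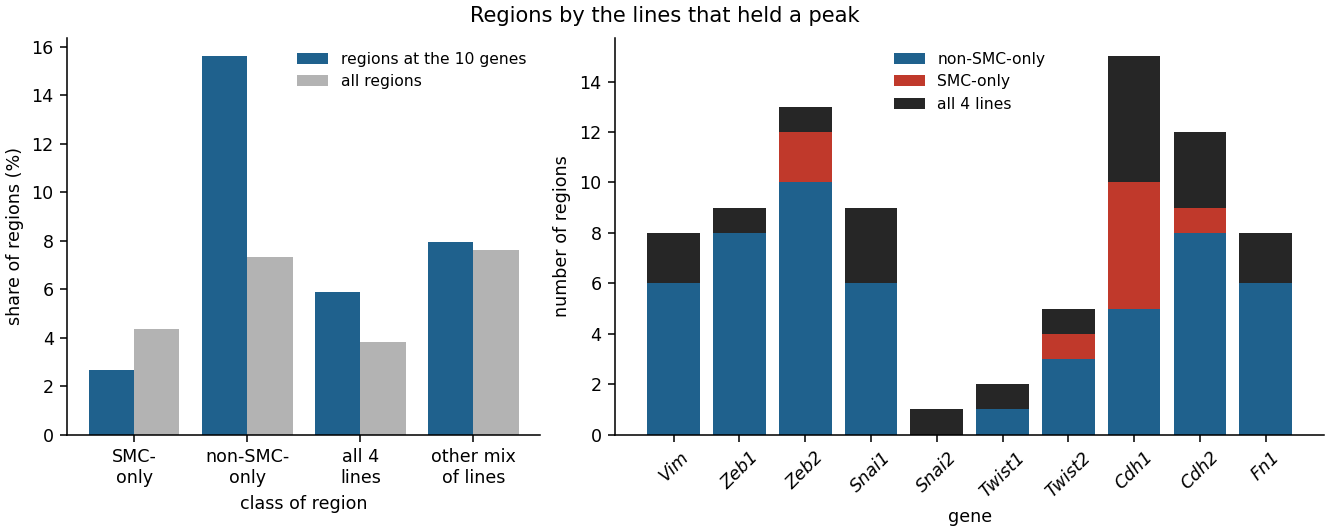
Left, share of regions (%) in each class of lines that held a peak, at the 10 EMT genes (blue) and in the genome (grey), with regions of a single line left out of the plot. Right, number of non-SMC-only, SMC-only and all-4-line regions at each gene. Non-SMC-only regions made up 15.6% at the EMT genes and 7.33% in the genome, and *Cdh1* had the most SMC-only regions, 5.

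Sequence around the leading summit, the highest of the region, is shown for the non-SMC-only regions that led at *Vim*, *Snai1*, *Twist2* and *Fn1*, which held a copy of the AP-1 site, and at *Zeb2*, which held none. The leading non-SMC-only region held that site at 5 of 9 genes, *Cdh2* included, and lacked it at *Zeb1*, *Zeb2*, *Twist1* and *Cdh1*. Sequence is shown as well for the leading SMC-only regions of *Zeb2*, *Twist2* and *Cdh1*, which lacked it too. All are 201 bases of GRCm38 (mm10), plus strand, and capitals mark matches on either strand to TGACTCA (AP-1), GGAATG (the core of the TEAD motif) and CAGGTG (an E-box that ZEB and SNAI factors bind).
Vim, non-SMC-only, chr2:13558668-13558868: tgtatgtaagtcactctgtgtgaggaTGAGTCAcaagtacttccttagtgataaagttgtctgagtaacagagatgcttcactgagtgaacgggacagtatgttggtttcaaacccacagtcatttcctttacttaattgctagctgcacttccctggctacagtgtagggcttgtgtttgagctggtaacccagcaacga
Snai1, non-SMC-only, chr2:167574856-167575056: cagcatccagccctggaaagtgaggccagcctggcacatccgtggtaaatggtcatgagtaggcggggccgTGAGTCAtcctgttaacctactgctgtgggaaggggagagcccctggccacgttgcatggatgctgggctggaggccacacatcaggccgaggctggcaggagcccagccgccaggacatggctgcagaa
Twist2, non-SMC-only, chr1:91823529-91823729: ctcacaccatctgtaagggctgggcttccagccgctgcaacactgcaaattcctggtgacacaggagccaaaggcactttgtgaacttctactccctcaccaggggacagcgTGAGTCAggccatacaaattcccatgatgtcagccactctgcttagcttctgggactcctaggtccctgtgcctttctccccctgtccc
Fn1, non-SMC-only, chr1:71667579-71667779: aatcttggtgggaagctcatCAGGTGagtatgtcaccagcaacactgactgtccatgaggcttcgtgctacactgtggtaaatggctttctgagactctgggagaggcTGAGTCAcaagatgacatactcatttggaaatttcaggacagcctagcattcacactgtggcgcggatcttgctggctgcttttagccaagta
Zeb2, non-SMC-only, chr2:44969309-44969509: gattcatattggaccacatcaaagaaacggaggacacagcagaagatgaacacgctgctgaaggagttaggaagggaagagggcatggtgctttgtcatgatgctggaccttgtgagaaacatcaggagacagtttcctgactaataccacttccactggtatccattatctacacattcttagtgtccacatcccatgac
Zeb2, SMC-only, chr2:45031654-45031854: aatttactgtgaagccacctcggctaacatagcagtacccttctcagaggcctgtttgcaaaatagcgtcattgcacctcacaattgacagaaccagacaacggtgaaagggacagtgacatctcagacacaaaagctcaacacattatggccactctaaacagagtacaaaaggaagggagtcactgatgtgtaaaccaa
Twist2, SMC-only, chr1:91883178-91883378: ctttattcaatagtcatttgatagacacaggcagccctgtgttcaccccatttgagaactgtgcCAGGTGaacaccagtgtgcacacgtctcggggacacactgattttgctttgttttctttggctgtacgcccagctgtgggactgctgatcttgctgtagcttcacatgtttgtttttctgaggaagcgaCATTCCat
Cdh1, SMC-only, chr8:106672615-106672815: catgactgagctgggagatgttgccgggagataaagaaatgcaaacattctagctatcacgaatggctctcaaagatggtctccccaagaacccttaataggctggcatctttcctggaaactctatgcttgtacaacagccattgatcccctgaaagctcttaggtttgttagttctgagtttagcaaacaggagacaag
The AP-1 copy began 74 bases to the left of the summit at *Vim*, 29 to the left at *Snai1*, 12 to the right at *Twist2* and 8 to the right at *Fn1*. The SMC-only window of *Twist2* held the E-box and the TEAD core once each, and those of *Zeb2* and *Cdh1*, like the non-SMC-only window of *Zeb2*, held none of the 3 motifs.

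Among the mesenchymal products, *Vim* encodes the intermediate filament vimentin and lies at chr2:13573927-13582826 on the plus strand. Its window held 2 peaks in SMC#1, 5 in SMC#2 and 12 in each non-SMC line, that is 2.20, 3.25, 10.36 and 9.32 per 100000. The lines of a type were close and the types did not overlap, with 2.72 ± 0.74 per 100000 (SD, n = 2) in SMC against 9.84 ± 0.73 (SD, n = 2) in non-SMC. Non-SMC was higher by 8.16 in pair 1 and by 6.08 in pair 2. The difference of the means, 7.12, was 1.76 with 10 kb on each side and 0.01 in the gene body alone. Strong peaks numbered 1 in each SMC line, 8 in non-SMC#1 and 6 in non-SMC#2.

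The non-SMC-only region that led at *Vim*, chr2:13558506-13559093, lay 15159 bp upstream of the TSS, between *Vim* and the tRNA methyltransferase gene *Trdmt1*. Its peak stood at the 92.4 percentile of non-SMC#1 and the 94.8 percentile of non-SMC#2, with a -log10 q of 62.45 and 19.79. A region 10025 bp downstream of the TSS reached the 90.1 and 92.8 percentiles. At the promoter all 4 lines had a peak, at the 52.0 percentile in SMC#1, 75.8 in SMC#2, 81.1 in non-SMC#1 and 88.9 in non-SMC#2. Its -log10 q was 1.23, 2.66, 33.35 and 14.71, so a strong peak was present in both non-SMC lines but no SMC line. The highest region shared by all 4 lines, 29373 bp upstream, lay 114 bp from the TSS of *Trdmt1*. The median local background of the *Vim* peaks, as a multiple of the lowest of the library, was 1.00 in both SMC lines, 2.25 in non-SMC#1 and 1.47 in non-SMC#2, and its part in the peak numbers was not tested.

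*Fn1* encodes fibronectin, an adhesive protein of the matrix, and lies at chr1:71585520-71653200 on the minus strand. It had 6 and 7 peaks in the SMC lines and 18 and 21 in the non-SMC lines, or 6.59, 4.55, 15.54 and 16.32 per 100000. The mean was 5.57 ± 1.44 (SD, n = 2) in SMC against 15.93 ± 0.55 (SD, n = 2) in non-SMC, the widest difference of the 10 genes at 10.36, but among strong peaks, scaled to the strong peaks of each list, the difference turned to -1.79. Strong peaks numbered 2 in each SMC line, 5 in non-SMC#1 and 2 in non-SMC#2. Per 100000 strong peaks these were 15.31 in SMC#1, 7.6 in SMC#2, 11.37 in non-SMC#1 and 7.97 in non-SMC#2, so the types overlapped. The 6 non-SMC-only regions of *Fn1* were weak. The leading one, chr1:71667408-71667821, lay 14479 bp upstream of the TSS at the 68.2 and 61.1 percentiles, with a -log10 q of 5.65 and 1.74. The promoter of *Fn1* had 1 peak in every line, between the 78.7 percentile (SMC#1) and the 94.4 percentile (SMC#2), and the types overlapped. The highest peak in the window belonged in all 4 lines to 1 region, with its leading summit 44 bp from the TSS of the neighbor *Atic*, a purine synthesis gene.

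*Cdh2* encodes N-cadherin, an adhesion protein of neural and mesenchymal cells, and is on chromosome 18 (16588877 to 16809246, minus strand). Peaks numbered 12 in SMC#1, 17 in SMC#2, 28 in non-SMC#1 and 22 in non-SMC#2, or 13.18, 11.04, 24.17 and 17.09 per 100000. The mean was 12.11 ± 1.51 (SD, n = 2) in SMC against 20.63 ± 5.01 (SD, n = 2) in non-SMC, and the difference of 8.52 turned to -5.76 among strong peaks scaled to the strong peaks of each list. Strong peaks numbered 4, 5, 8 and 5. Of the 8 non-SMC-only regions, 7 lay in intron 2, a long intron, and the leading one, 64224 bp from the TSS, reached the 84.4 and 94.6 percentiles with a -log10 q of 38.86 and 17.97. The only SMC-only region, in the same intron, had a -log10 q of 1.23 and 1.94. The *Cdh2* promoter had 3, 5, 4 and 3 peaks, and the highest of them stood at the 93.7, 86.7, 79.8 and 85.0 percentiles, so this mesenchymal gene had a strong promoter peak in both types.

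*Zeb1* and *Zeb2* encode zinc finger repressors of epithelial genes. *Zeb2*, at chr2:44983632-45117395 on the minus strand, had 6 peaks in SMC#1, 16 in SMC#2, 22 in non-SMC#1 and 17 in non-SMC#2. Per 100000 these were 6.59, 10.39, 18.99 and 13.21, with a mean of 8.49 ± 2.69 (SD, n = 2) in SMC against 16.10 ± 4.09 (SD, n = 2) in non-SMC. Strong peaks numbered 2 in each SMC line against 13 and 9 in the non-SMC lines. *Zeb2* was thus higher in non-SMC by both counts, although by 12.40 per 100000 in pair 1 and 2.82 in pair 2. The difference of the means, 7.61, was 2.76 with 10 kb on each side and 0.67 in the gene body alone.

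Downstream of *Zeb2*, 7 of its 10 non-SMC-only regions lay in the stretch chr2:44952788-44982027, where no coding gene is annotated. The leading one, chr2:44969230-44969752, reached the 99.0 and 93.8 percentiles with a -log10 q of 67.29 and 13.02. Within the same stretch an SMC-only region 138135 bp from the TSS stood at the 87.5 percentile in SMC#1 and the 68.2 percentile in SMC#2. The leading SMC-only region of *Zeb2*, chr2:45031610-45031936 in intron 2, stood at the 91.0 percentile in SMC#1 and the 99.9 percentile in SMC#2, with a -log10 q of 6.63 and 47.44. It was the highest peak of the *Zeb2* window in both SMC lines, while non-SMC-only regions lay on either side of it in introns 2 and 3. *Zeb2* therefore had regions of both classes, and the SMC lines were open at a place where no non-SMC line had a listed peak. At the 5′ end of the gene the highest promoter peak had a -log10 q of 0.47 in SMC#1 and 5.49 in non-SMC#1, in the same region, and of 0.71 in SMC#2 at another site, and non-SMC#2 had no peak. A region 6948 bp inside the gene, over the first exon of the transcript with the longest coding sequence, had a peak in all 4 lines at the 83.2, 88.9, 90.6 and 89.1 percentiles.

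*Zeb1*, on chromosome 18 (5591860 to 5775467, plus strand), had 11 peaks in SMC#1, 5 in SMC#2, 17 in non-SMC#1 and 15 in non-SMC#2. Scaled, these were 12.08, 3.25, 14.68 and 11.65 per 100000, so SMC#1 lay above non-SMC#2 and the types overlapped, although non-SMC was higher by 2.60 in pair 1 and by 8.41 in pair 2. The mean was 7.66 ± 6.25 (SD, n = 2) in SMC against 13.16 ± 2.14 (SD, n = 2) in non-SMC. Strong peaks, 1 in each SMC line against 9 and 3, did not overlap when scaled. A non-SMC-only region in intron 2, 148655 bp from the TSS, reached the 99.1 percentile in non-SMC#1 and 97.4 in non-SMC#2, with a -log10 q of 96.19 and 19.71, and was the highest of all 53 non-SMC-only regions at the EMT genes by mean percentile. At the promoter SMC#2 had no peak, and the others stood at the 76.0 (SMC#1), 70.7 (non-SMC#1) and 32.9 (non-SMC#2) percentiles, none of which covered the TSS itself.

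*Snai1* and *Snai2* encode the zinc finger repressors Snail and Slug. *Snai1*, at chr2:167538195-167542814 on the plus strand, had 13, 17, 20 and 17 peaks in SMC#1, SMC#2, non-SMC#1 and non-SMC#2, or 14.28, 11.04, 17.27 and 13.21 per 100000, and the types overlapped, although non-SMC was higher by 2.99 in pair 1 and by 2.17 in pair 2. No strong peak was found at *Snai1* in either SMC line, against 11 in non-SMC#1 and 8 in non-SMC#2. All 6 non-SMC-only regions lay downstream of the gene. The leading one by mean percentile, chr2:167574816-167575214, lay 36761 bp from the TSS in the long noncoding RNA gene *Gm11476*, at the 86.8 and 91.0 percentiles with a -log10 q of 46.72 and 15.47. The nearest, 5459 bp from the TSS, had a -log10 q of 42.18 and 4.45. The regions shared by all 4 lines were upstream, over the neighbors *Spata2* and *Rnf114*. At the TSS, the region chr2:167537692-167538268 had a peak in SMC#2, non-SMC#1 and non-SMC#2, at the 49.3, 62.7 and 84.9 percentiles with a -log10 q of 2.70, 5.51 and 7.63, and none in SMC#1. The only promoter peak of SMC#1 lay elsewhere, 2398 bp into the gene, with a -log10 q of 0.58, so a strong promoter peak was found in both non-SMC lines only. The median local background at *Snai1* was 1.51, 2.06, 2.27 and 2.49 times the lowest of the library, in the same order of lines, and its part in these values was not tested.

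*Snai2* was the EMT gene without a region of either class. At chr16:14705852-14709385 on the plus strand, it had 2 peaks in each SMC line, 6 in non-SMC#1 and 1 in non-SMC#2, or 2.20, 1.30, 5.18 and 0.78 per 100000. The promoter region chr16:14705202-14706451 had a peak in all 4 lines that covered the TSS, at the 94.2, 97.6, 90.0 and 94.0 percentiles, with a -log10 q of 8.89, 20.83, 31.42 and 12.81. It was the only EMT transcription factor gene with a strong promoter peak in every line.

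*Twist1* and *Twist2* encode basic helix-loop-helix factors of the mesoderm. *Twist1*, at chr12:33957671-33959829 on the plus strand, had 1, 2, 4 and 2 peaks in all, every one of them within 3 kb of the TSS, so its higher non-SMC value of 2.50 ± 1.34 against 1.20 ± 0.14 per 100000 (SD, n = 2 each) rests on a few peaks. Both SMC#2 and non-SMC#2 had 2 peaks. A region 1184 bp into the gene had a peak in all 4 lines with a -log10 q of 1.23, 1.94, 3.31 and 2.54. A non-SMC-only region, chr12:33956695-33957770, lay 626 bp upstream of the TSS at the 81.3 and 68.3 percentiles with a -log10 q of 12.66 and 2.50, and a peak covered the TSS in both non-SMC lines but no SMC line.

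*Twist2*, at chr1:91801461-91848028 on the plus strand, had 9 peaks in SMC#1 and 17 in each of the other lines. Per 100000 these were 9.88, 11.04, 14.68 and 13.21, with a mean of 10.46 ± 0.82 (SD, n = 2) in SMC against 13.94 ± 1.04 (SD, n = 2) in non-SMC, and the difference of 3.48 turned to -0.09 in the gene body alone. In intron 1, both non-SMC lines had a peak at 15388 bp and at 22168 bp from the TSS where neither SMC line had one. The second, chr1:91823295-91824073, reached the 95.4 and 98.0 percentiles with a -log10 q of 64.66 and 31.37. The first stood at 92.6 and 98.1. A single SMC-only region, 81817 bp from the TSS, was weak in SMC#1 (the 19.7 percentile) and at the 82.4 percentile in SMC#2. The promoter peaks of *Twist2* lay between the 12.7 and 56.8 percentiles and were strong in no line.

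*Cdh1*, the epithelial member, encodes E-cadherin and lies at chr8:106603351-106670246 on the plus strand. By peaks per 100000 listed, it was the only EMT gene with a lower mean in non-SMC. Its window held 28 peaks in SMC#1, 26 in SMC#2, 21 in non-SMC#1 and 18 in non-SMC#2, or 30.75, 16.89, 18.13 and 13.98 per 100000. Non-SMC minus SMC was -12.62 in pair 1 and -2.90 in pair 2. SMC#2 lay below non-SMC#1, so the types overlapped, with 23.82 ± 9.80 (SD, n = 2) in SMC against 16.06 ± 2.93 (SD, n = 2) in non-SMC. Without SMC#2, or without non-SMC#1, every SMC value lay above every non-SMC value. Strong peaks numbered 4 in SMC#1, 8 in SMC#2, 9 in non-SMC#1 and 8 in non-SMC#2. Per 100000 strong peaks these were 30.62, 30.4, 20.46 and 31.87, so the types overlapped and non-SMC#2 was the highest.

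The promoter of *Cdh1* was marked by a peak in the SMC lines alone, the only EMT gene with that pattern (1 of 10, against 3.08% of all genes), and it was strong in both (against 1.63% of all genes). The peak, chr8:106603154-106603674, covered the TSS and stood at the 87.4 percentile in SMC#1 and the 88.0 percentile in SMC#2, with a -log10 q of 5.81 and 8.46. The result was the same for promoters of 1 kb or 500 bp on each side and for the TSS of every transcript. Other SMC-only regions lay in intron 2 at 29393 and 33686 bp from the TSS and downstream at 69364 and 101789 bp. The leading one, chr8:106672608-106673203, was downstream at the 92.9 and 93.5 percentiles, 10353 bp from the TSS of the neighbor *Tango6*.

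The *Cdh1* window also held 5 non-SMC-only regions, as many as SMC-only ones. They included a region 52920 bp from the TSS in intron 5, at the 93.6 and 87.7 percentiles, and one at chr8:106701275-106701731 inside *Tango6*, at the 90.5 and 96.3 percentiles. The highest peak of the window in both non-SMC lines, 115040 bp from the *Cdh1* TSS and inside *Tango6*, was present in all 4 lines. It stood at the 81.1 and 81.4 percentiles in SMC and at 99.6 and 99.7 in non-SMC. Another shared region, 5200 bp from the TSS in intron 2, stood at the 87.5, 93.2, 70.3 and 77.5 percentiles in SMC#1, SMC#2, non-SMC#1 and non-SMC#2. In the non-SMC lines the *Cdh1* locus thus had listed peaks within and beyond the gene while its promoter had none.

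**Figure D3:**
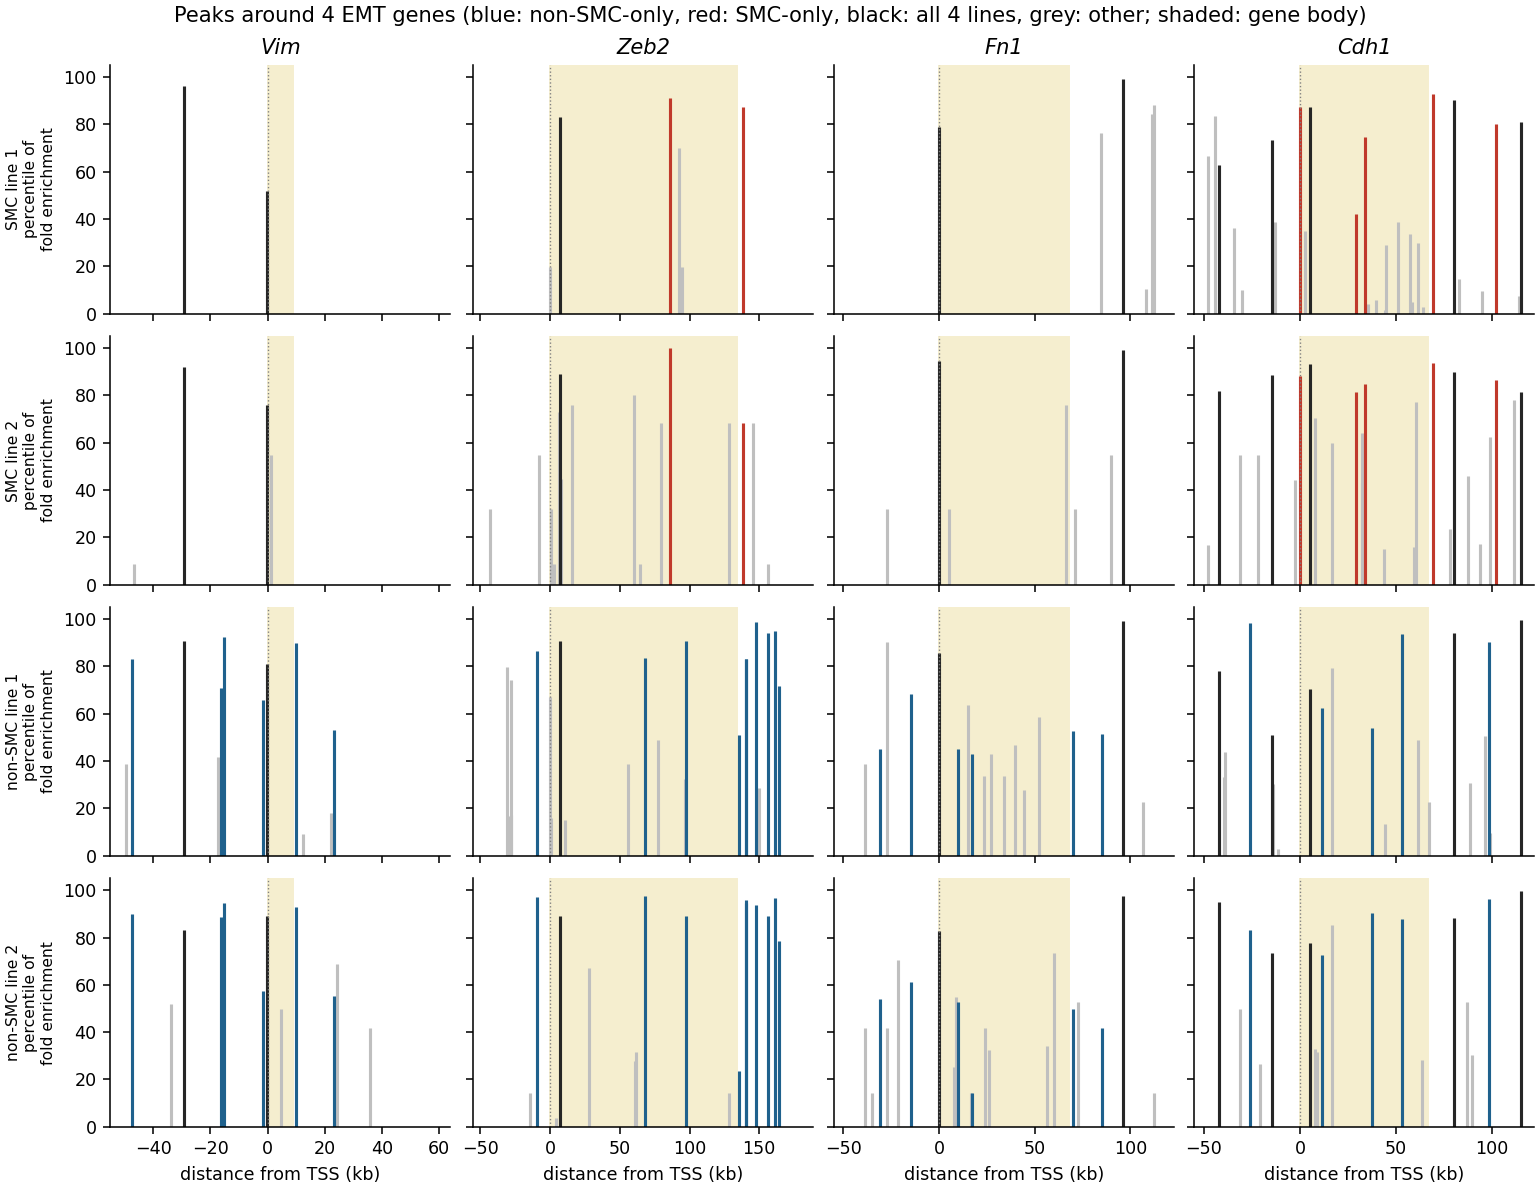
Regions with a peak around *Vim*, *Zeb2*, *Fn1* and *Cdh1* (columns) in each line (rows), by the distance of the summit from the TSS (x axis, kb, positive in the direction of transcription) and the percentile of fold enrichment in the line's own list (y axis). *Vim* and the 3′ side of *Zeb2* show tall non-SMC-only bars (blue), those of *Fn1* stay at or below the 68.2 percentile, and *Cdh1* has SMC-only bars (red) at its TSS and beyond its 3′ end.

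Across the promoters, 7 of the 10 EMT genes had a peak in all 4 lines, not always at the same site, against 48.7% of all genes, and *Zeb1*, *Zeb2* and *Cdh1* did not. No EMT gene had a promoter peak in both non-SMC lines but no SMC line, against 2.45% of all genes. Among strong peaks *Vim* and *Snai1* had that pattern (2 of 10, against 5.30% of all genes). The number of EMT genes with any promoter peak was 10 in SMC#1, 9 in SMC#2, 9 in non-SMC#1 and 8 in non-SMC#2, against 62.2%, 69.3%, 64.6% and 64.9% of all genes. Of the 53 non-SMC-only regions, 3 had their leading summit within 3 kb of the TSS of the EMT gene (at *Vim*, *Zeb1* and *Twist1*), and of the 9 SMC-only regions 1 did, at *Cdh1*.

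**Figure D4:**
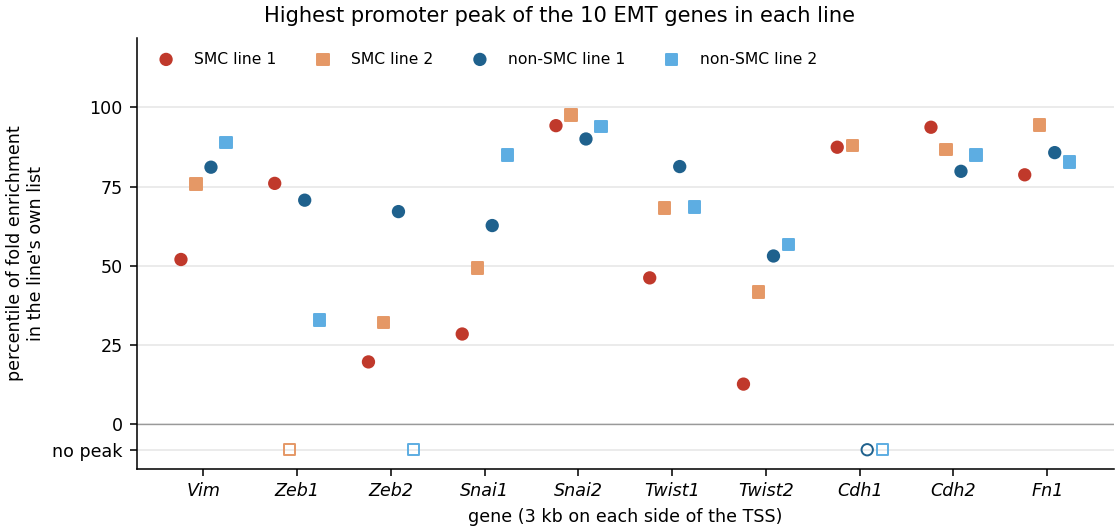
Percentile of fold enrichment, in the line's own list, of the highest peak within 3 kb of the TSS of each EMT gene, with open symbols on the lowest line where no peak was listed. *Snai2*, *Cdh2* and *Fn1* stand high in all 4 lines, between the 78.7 and 97.6 percentiles, and *Cdh1* has no peak in either non-SMC line.

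Motifs were searched on both strands within 100 bp of the leading summit. The AP-1 site was found in 25 of the 53 non-SMC-only regions at the EMT genes (47.2%), against 46.5% of all non-SMC-only regions, and in none of the 9 SMC-only regions, against 4.14% of all of that class. The share at the EMT genes was thus that of the class, and over regions of any class in the genome it was 11.2%. The AP-1 site was found in 7 of 10 non-SMC-only regions at *Zeb2*, 4 of 8 at *Cdh2*, 3 of 6 at *Vim* and 3 of 8 at *Zeb1*. It was also found in 3 of 3 at *Twist2*, 2 of 6 at *Snai1*, 2 of 5 at *Cdh1*, 1 of 6 at *Fn1* and 0 of 1 at *Twist1*. The TEAD core was present in 11 of 53 (20.8%, against 19.3%), the RUNX core TGTGGT in 16 (30.2%, against 29.6%) and the SOX core ACAAAG in 12 (22.6%, against 16.9%). CAGGTG was present in 9 of 53 (17.0%), against 6.47% of all non-SMC-only regions, and 4 of the 9 were at *Fn1*. Over regions of any class, CAGGTG was present in 16.2% at the EMT genes and 17.1% in the genome. In SMC-only regions CAGGTG was present in 3 of 9, against 31.6% of that class. These are short words, and a match describes the sequence and not the binding of a factor.

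**Figure D5:**
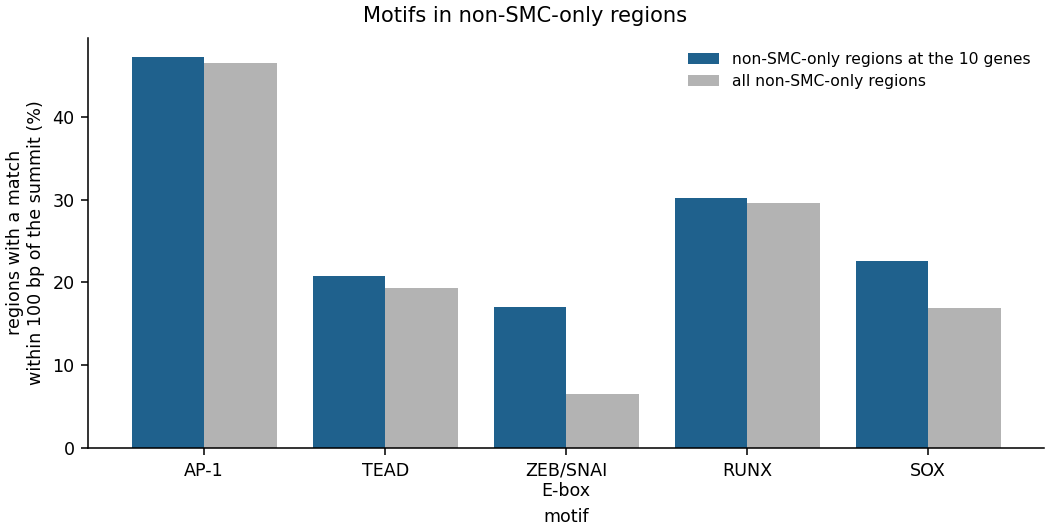
Share of non-SMC-only regions (%) with a match to each motif within 100 bp of the leading summit, for the 53 regions at the EMT genes (blue) and all 26224 in the genome (grey). The AP-1 site was the most frequent in both, at 47.2% and 46.5%, and the bars differ most at the E-box of ZEB and SNAI, at 17.0% and 6.47%. Over regions of any class in the genome, not plotted, the share with this E-box was 17.1%.

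Other genes of the pathway, on lists chosen with earlier results of these data known, were counted the same way. The mesenchymal list holds *Cd44*, the surface marker used for sorting, which is among both the 15 and the 20 genes below. Of 25 further mesenchymal genes, 15 (60.0%, against 19% of all genes) had more peaks per 100000 in both non-SMC lines and 0 in both SMC lines, with a median difference of 5.77. Those with the widest difference were *Spp1*, which encodes osteopontin, *Tgfb2*, a TGF-beta ligand, and *Acta2*, smooth muscle actin. Counted as listed, without scaling, *Spp1* had 2 and 3 peaks in the SMC lines and 17 and 18 in the non-SMC lines. *Tgfb2* had 13 and 15 against 34 and 24, and *Acta2* had 4 and 3 against 21 and 11. A promoter peak in both non-SMC lines only was found at *Acta2*, *Spp1* and *Tnc*, the gene of tenascin C (3 of 25, against 2.45% of all genes). Among strong peaks 20 of the 25 (80.0%, against 25.5% of all genes) were higher in both non-SMC lines and 0 in both SMC lines.

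Further epithelial genes numbered 22, and their peaks were scaled to the length of each list. Of these genes, 4 (18.2%, against 19.9% of all genes) had more scaled peaks in both SMC lines (*Dsp*, *Esrp1*, *Klf5* and *Ovol1*). Another 2 (9.09%, against 19%) had more in both non-SMC lines (*Grhl2* and *Mal2*), and the median difference was -0.84. Counted as listed, without scaling, *Esrp1*, an epithelial splicing regulator, had 6 and 12 peaks in the SMC lines and 3 and 7 in the non-SMC lines. *Dsp*, the desmosomal protein desmoplakin, had 9 and 15 against 9 and 11, and *Klf5*, an epithelial transcription factor, had 6 and 8 against 5 and 6. *Ovol1* had 12 and 19 against 14 and 15. *Grhl2*, a transcription factor that maintains epithelia, went the other way when scaled. As listed it had 14 and 28 peaks in the SMC lines and 23 and 30 in the non-SMC lines. The membrane protein gene *Mal2* had 6 and 11 against 10 and 17. In these unscaled counts the types overlapped or tied at all 4 genes of the first group and both of the second. Their calls therefore rest on the scaling. As at *Cdh1*, the promoter had a peak in both SMC lines only at *Epcam*, *Cldn3*, *Esrp1* and *Ovol1* (4 of 22 or 18.2%, against 3.08% of all genes), and the opposite was found at *Cldn4* (4.55%, against 2.45%). Among strong peaks 7 of the 22 (31.8%, against 15.8% of all genes) were higher in both SMC lines and 4 (18.2%, against 25.5%) in both non-SMC lines. The epithelial list is not fully separate from the EMT genes, because *Cdh3* on it overlaps the window of *Cdh1*.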

How the data were processed

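ATAC-seq peak lists of 2 SMC and 2 non-SMC lines were analyzed. The authors mapped paired-end reads to mm10 with Bowtie2 2.3.4, used sambamba against duplicate reads and MACS2 2.1.1 as the peak caller, per the methods and the submitters' notes, in each library separately; the calling settings are not given in the sources used here. The deposited values are the fold enrichment, a ratio of pileup to local background at the summit, and the -log10 p and -log10 q. The deposited score was not used. The lists hold no read depth, and each value depends on the depth of its own library.

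Peaks off chromosomes 1 to 19, X and Y were dropped and the rest matched to GENCODE M21 on GRCm38. A gene's 5′ end was its TSS, and a promoter was 3 kb on each side. Lists were merged at an overlap of at least 1 base. Pileup and background were recovered from fold and p, given that MACS2 adds 1 to both, and the steps were tested on simulated data. The genes named are the 10 EMT genes, at each the leading region of each class by mean percentile, and up to 3 genes per direction of the other lists; other genes and regions were named after their values were seen. The members and lists were chosen with earlier results of these data known. Whether the 4 lines came from separate mice is not stated for each line. Alternatives are given under the dependence on processing. The work used bedtools 2.31.1, matplotlib 3.10.9, pandas 2.3.3, scipy 1.17.1, numpy 2.4.6 and Python 3.11.15.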

Additional observations from a re-analysis of the deposited data

Results flagged for a closer look

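At *Snai2* the difference in peaks per 100000 listed, non-SMC minus SMC, had opposite signs in the 2 line pairs, with 2.98 in pair 1 and -0.52 in pair 2. The difference between the pairs was not tested. It rests on 6 peaks in non-SMC#1 and 1 in non-SMC#2, against 2 in each SMC line.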

How the results depend on the processing

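Each count at the 10 EMT genes was recomputed under the alternatives, and "more in SMC" or "more in non-SMC" below counts genes at which both lines of a type had more peaks. With strong peaks only, the non-SMC-only regions went from 53 to 32, the SMC-only regions from 9 to 4 and the genes with a promoter peak in non-SMC only from 0 to 2. The genes with more peaks in SMC went from 0 to 1 (*Cdh1*) with each list shortened to its top 91057 peaks, with peaks as listed, with bases covered in place of peaks, and with 10 kb on each side. With peaks as listed, 5 genes had more in non-SMC (*Vim*, *Zeb1*, *Zeb2*, *Cdh2* and *Fn1*), and *Twist1* and *Twist2* were not among them. With 10 kb the non-SMC-only regions numbered 34. In the gene body alone, 3 genes had more in non-SMC (*Twist1*, *Cdh2* and *Fn1*) and 1 had more in SMC (*Cdh1*). That setting left 21 non-SMC-only and 5 SMC-only regions, and the differences of *Vim* and *Zeb2* were 0.01 and 0.67. With 100 kb on each side there were 16 SMC-only regions. A promoter of 500 bp on each side gave 2 genes with a peak in non-SMC only (*Zeb1* and *Twist1*). Leaving out each library in turn gave 6 to 9 genes with more in non-SMC and 0 to 2 with more in SMC, 56 to 120 non-SMC-only and 9 to 76 SMC-only regions, 0 to 1 genes with a promoter peak in non-SMC only and 1 to 2 in SMC only. The SMC-only regions numbered 76 without SMC#1 and 57 without SMC#2, and the non-SMC-only regions 111 without non-SMC#1 and 120 without non-SMC#2, since a class then needs 1 library fewer. Without SMC#2, *Cdh1* had more peaks in SMC, and without non-SMC#1, *Cdh1* and *Snai2* did. Without SMC#1, *Zeb1* had a promoter peak in non-SMC only, and without non-SMC#1, *Zeb2* had one in SMC only, beside *Cdh1*. In the gene body alone the difference of *Twist2* was -0.09, and among strong peaks those of *Cdh2* and *Fn1* were -5.76 and -1.79, all opposite to the values reported. The causes were not tested. Of 90 differences of single genes under these alternatives, 83 kept the sign of the value reported. Apart from the 3 reversed ones just named, 19 moved by more than the SD between the lines of a type.

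The labels call the types paired and number the lines, but do not say that a number marks 1 mouse. Across 21938 genes, line 1 minus line 2 in SMC correlated with line 1 minus line 2 in non-SMC with r = 0.178. With the line pair as a replicate block, required in both pairs, 8 genes had more in non-SMC and 1 (*Cdh1*) more in SMC, and the classes of regions and promoters stayed at 53, 9, 0 and 1 by construction.

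A missing peak says only that none was listed at the depth of that library, and windows of *Vim*, *Snai1*, *Twist1*, *Cdh1* and *Fn1* also hold other coding genes.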
